A study of Homo sapiens with 12 samples.

Results

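NOTCH receptors, ligands and targets, 10 genes in all, were measured by RNA-seq in 2 human squamous carcinoma lines with altered levels of KLF5, a transcription factor of epithelial cells. They were the receptors NOTCH1, NOTCH2 and NOTCH3, the ligands JAG1 and JAG2, the target genes HES1, HES2, HES4 and HEY1, and NRARP, a target that also feeds back on the pathway. They were found by gene symbol, which the HCC95 files pair with each Ensembl gene ID, and by the same ID in the BICR31 files, and make 10 of the 57820 gene IDs listed in every file. BICR31, an established head and neck squamous cell carcinoma line, had been given a small interfering RNA that silences KLF5 (siKLF5) or the control siNC, with 3 libraries of poly(A) RNA per group (A, B and C). HCC95 is an established line of lung squamous cell carcinoma. It overexpressed KLF5 WT or KLF5 E419Q or held an empty vector, with 2 libraries per group (A and B). E419Q is a missense form of KLF5. The siRNA sequence, the vector, the time of harvest and whether a group holds 1 clone or a pool were not stated in the labels. The comparisons asked what silencing KLF5, raising it and raising its E419Q form did to transcript levels, and whether E419Q differed from WT.

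NOTCH receptors are cut in the secretory pathway by furin, sit at the cell surface and bind ligands of the Jagged and Delta families on neighbouring cells. Binding lets ADAM proteases and then gamma-secretase release the intracellular part of the receptor, which enters the nucleus and joins RBPJ and a Mastermind protein on DNA to switch on HES and HEY genes, repressors of the basic helix-loop-helix class, and NRARP. In stratified squamous epithelium NOTCH signalling is known for driving cells out of the basal layer into differentiation, and receptor mutations occur in squamous carcinomas. KLF5 belongs to the SP/KLF zinc-finger family, whose members bind GC boxes and CACCC elements.

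The files held 1922360 to 2296190 counts per BICR31 library, as estimated from the size of 1 count in the normalised values, and 3074139 to 4643792 per HCC95 library. KLF5 itself served as the check of the labels. It stood at 986, 1008 and 882 units of the deposited normalised signal with siKLF5 A, B and C, under all 3 siNC libraries (2289 to 2682 units), a log2 fold change of -1.40 (limma adjusted p = 7.27e-09). In HCC95 the empty vector libraries held KLF5 at 136 to 149.9 CPM (counts per 1000000 of the library total), the WT libraries 404 to 420 CPM and the E419Q libraries 427 to 442 CPM. The KLF5 level was not called different between E419Q and WT (log2 0.06, edgeR adjusted p = 0.683). The check thus covers silencing and overexpression but cannot tell the WT label from the E419Q label. All 8 squamous epithelial markers listed (keratins KRT5, KRT14 and KRT6A, TP63, DSG3, PKP1, CDH1 and EPCAM) were present in every group. Their summed level was 4704 to 4889 CPM with siKLF5 and 6224 to 6303 CPM with siNC. It was 13502 to 14222 CPM with E419Q, 16530 to 17017 CPM with the empty vector and 19019 to 19681 CPM with WT. In these HCC95 groups KRT5 made up most of it, at 10724 to 11308, 14127 to 14491 and 16140 to 16736 CPM in the same order. KRT14, though present, held 25 counts in all with siKLF5. Single markers did not all follow the sum: 2 were called higher (DSG3 and CDH1) and 5 lower with siKLF5, 5 higher and 2 lower (KRT6A and CDH1) with WT, and 5 higher, TP63 by 0.45 on the log2 scale among them, and 3 lower (KRT5, KRT6A and DSG3) with E419Q, where KRT5 fell by 0.41. Of 5 fibroblast markers, DCN and LUM were at 0 with siKLF5, and the sum of the 5, nearly all COL1A1 and COL1A2, was 104 to 123 CPM there against 49.4 to 52.7 CPM with siNC, and 7.51 to 16.6 CPM in HCC95. The sum of 3 endothelial markers was 14.8 to 23.6 CPM with siKLF5 and 9.36 to 14.0 CPM with siNC. In HCC95 this sum was 26.3 to 28.5 CPM with E419Q and 11.4 to 16.5 CPM in the other groups. There VWF alone made up nearly all of it, and KDR was at 0 in every group. CDH5 held 2 counts in all with E419Q, 2 with WT and 8 with the empty vector. Of the immune markers, CD3E was at 0 in every group and CD68 made up nearly all of the sum (30.3 to 39.3 CPM with siKLF5, 17.0 to 19.7 CPM with siNC and 47.4 to 64.7 CPM in HCC95). The part of these markers in the results below was not tested, and in bulk RNA fewer cells of a type and less RNA per cell cannot be told apart. Nothing in the labels ties the libraries of a group to separate cultures, so the p-values measure the spread between libraries, which may be technical.

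The stretch of 250 bases before the annotated start was available from RefSeq (build GRCh38.p14) for 9 of the 10 genes, HEY1 being the exception. Of these, 6 are printed: HES1 and HES4, which hold the sequence that RBPJ of the NOTCH nuclear complex is known to bind, and 4 of the 5 genes called in both cell lines. The fifth, NOTCH2, is counted with the others but not printed. Searched on both strands were the RBPJ core TGGGAA, the GC box GGGCGG, the element CACCC and the N-box CACNAG, which HES repressors can bind. The letters TTCACAC, and the pattern of GTGGGAA followed on the gene's strand after 5 to 30 bases by TTCACAC, were added after the sequences had been seen. Each line runs 5′ to 3′ on the gene's strand. In HES1 and HES4 the capitals mark TGGGAA and TTCACAC, and in the others GGGCGG and CACCC on either strand (CCGCCC and GGGTG when read on the opposite one).
HES1 (chr3:194135898-194136147, plus strand): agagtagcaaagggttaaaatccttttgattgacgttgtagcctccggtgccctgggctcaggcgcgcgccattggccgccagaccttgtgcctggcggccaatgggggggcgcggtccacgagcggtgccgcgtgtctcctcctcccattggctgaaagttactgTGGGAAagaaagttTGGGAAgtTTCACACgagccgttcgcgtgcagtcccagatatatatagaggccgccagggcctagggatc
HES4 (chr1:1000098-1000347, minus strand): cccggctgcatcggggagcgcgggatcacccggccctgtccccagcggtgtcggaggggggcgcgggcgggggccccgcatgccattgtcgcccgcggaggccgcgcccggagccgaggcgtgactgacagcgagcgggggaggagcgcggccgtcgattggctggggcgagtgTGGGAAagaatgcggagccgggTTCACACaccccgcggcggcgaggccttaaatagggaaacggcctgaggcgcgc
NOTCH1 (chr9:136546049-136546298, minus strand): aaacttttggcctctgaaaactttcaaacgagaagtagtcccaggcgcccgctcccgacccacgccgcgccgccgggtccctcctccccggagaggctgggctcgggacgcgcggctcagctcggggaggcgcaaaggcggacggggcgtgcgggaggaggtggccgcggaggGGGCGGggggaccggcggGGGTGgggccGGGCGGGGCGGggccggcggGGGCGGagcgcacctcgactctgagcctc
NOTCH3 (chr19:15200996-15201245, minus strand): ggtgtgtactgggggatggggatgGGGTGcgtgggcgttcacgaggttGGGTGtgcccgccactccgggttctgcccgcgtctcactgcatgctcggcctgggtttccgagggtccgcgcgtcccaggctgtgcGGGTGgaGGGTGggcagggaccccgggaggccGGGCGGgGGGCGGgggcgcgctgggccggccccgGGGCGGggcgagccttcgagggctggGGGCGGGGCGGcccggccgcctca
JAG1 (chr20:10674000-10674249, minus strand): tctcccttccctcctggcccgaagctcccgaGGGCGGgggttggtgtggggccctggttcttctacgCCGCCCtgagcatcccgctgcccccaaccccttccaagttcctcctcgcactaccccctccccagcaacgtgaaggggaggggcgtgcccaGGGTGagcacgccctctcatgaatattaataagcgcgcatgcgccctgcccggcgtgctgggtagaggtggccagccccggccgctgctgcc
NRARP (chr9:137302272-137302521, minus strand): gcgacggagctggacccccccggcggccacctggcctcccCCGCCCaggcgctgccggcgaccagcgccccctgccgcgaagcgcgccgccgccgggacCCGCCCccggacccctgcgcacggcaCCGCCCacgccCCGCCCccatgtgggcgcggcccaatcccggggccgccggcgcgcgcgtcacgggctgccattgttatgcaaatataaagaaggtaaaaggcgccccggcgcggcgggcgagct
The paired pattern was found in HES1 and HES4 with the same number of bases between its arms, 16, though not the same sequence. It was in 5 of 35116 RefSeq windows of this length in all (0.0142%). HES1 held TGGGAA at 2 places and HES4 at 1, while the other 7 windows held none. TGGGAA was in 20.9% of all windows, at 2 or more places in 2.90%, and TTCACAC in 2.48%. GGGCGG was in 8 of the 9 windows, all but HES1, beside 42.6% of all windows. It was at 5 places in NOTCH3 and HES2 and at 4 in NOTCH1 and NRARP, some of them sharing bases. CACCC was in 7 of the 9, all but HES1 and NRARP, beside 54.7% of all windows. The N-box was in HES1 at 3 places and in NOTCH3 at 1, beside 32.0% of all windows, and 1 of those in HES1 shares bases with TTCACAC. These windows had 59.2% (HES1) to 81.6% (JAG2) G and C. A match is a string of letters and does not show that a protein binds there.

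**Figure D1:**
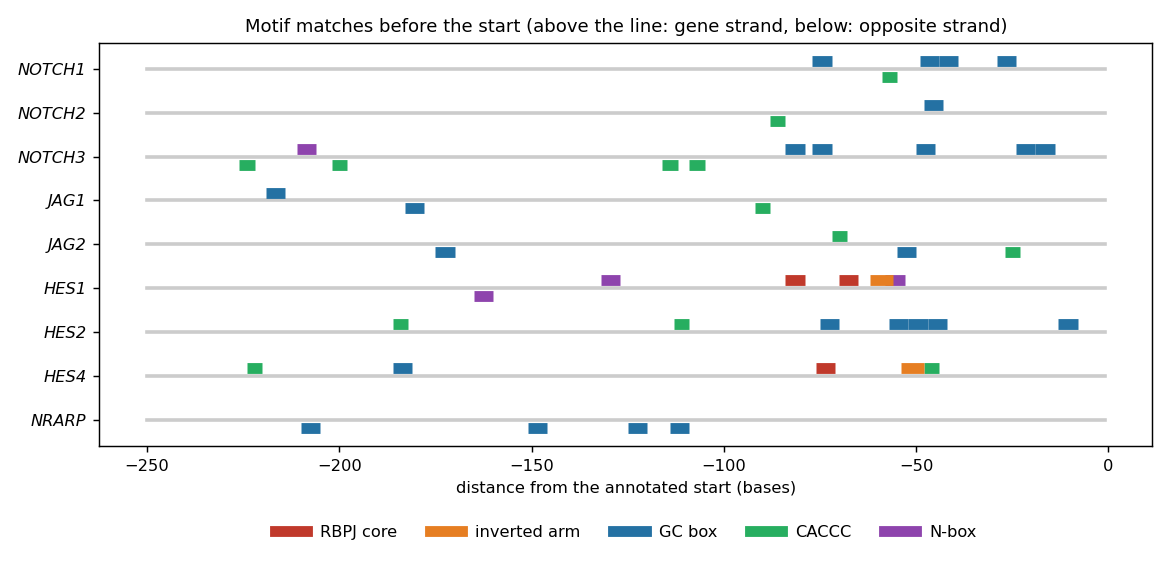
Matches of the 5 motifs in the 250 bases before the annotated start of 9 genes. The horizontal axis is the distance from the start in bases, coloured blocks above each line are matches on the gene's strand and blocks below it matches on the opposite strand. RBPJ core matches appear in HES1 and HES4 alone, each followed by the inverted arm, and GC boxes in the other 7 genes and HES4.

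Before any comparison, the levels of the 10 genes were ordered within each control group on a scale per transcript length, in parts per 1000000. This was TPM in HCC95. In BICR31 the signal was divided by the mean effective gene length of the HCC95 libraries and scaled to the same total. Orders and shares in BICR31 thus rest on lengths estimated in the other line. With siNC, JAG2 was highest at 83.2 ± 5.43 (SD, n = 3), then HES2 at 62.3 ± 3.39. NOTCH1, NOTCH3 and HES1 followed at 43.6, 42.9 and 41.3, with ranges that overlapped, and so did NRARP, HES4 and NOTCH2 (27.5, 24.4 and 18.2). JAG1 was next to last at 10.2 ± 1.20, and HEY1 last at 0.406. With the empty vector in HCC95, JAG1 was instead highest at 145 ± 0.127 (SD, n = 2) and JAG2 second at 106 ± 11.98. NOTCH1 (34.7) and HES1 (33.8) came next, then NOTCH3, HES4, NRARP, HEY1 and NOTCH2 (25.1 to 15.2), whose neighbours overlapped. HES2 was last at 10.4 ± 1.004. The lines were deposited in different units and never tested against each other.

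**Figure D2:**
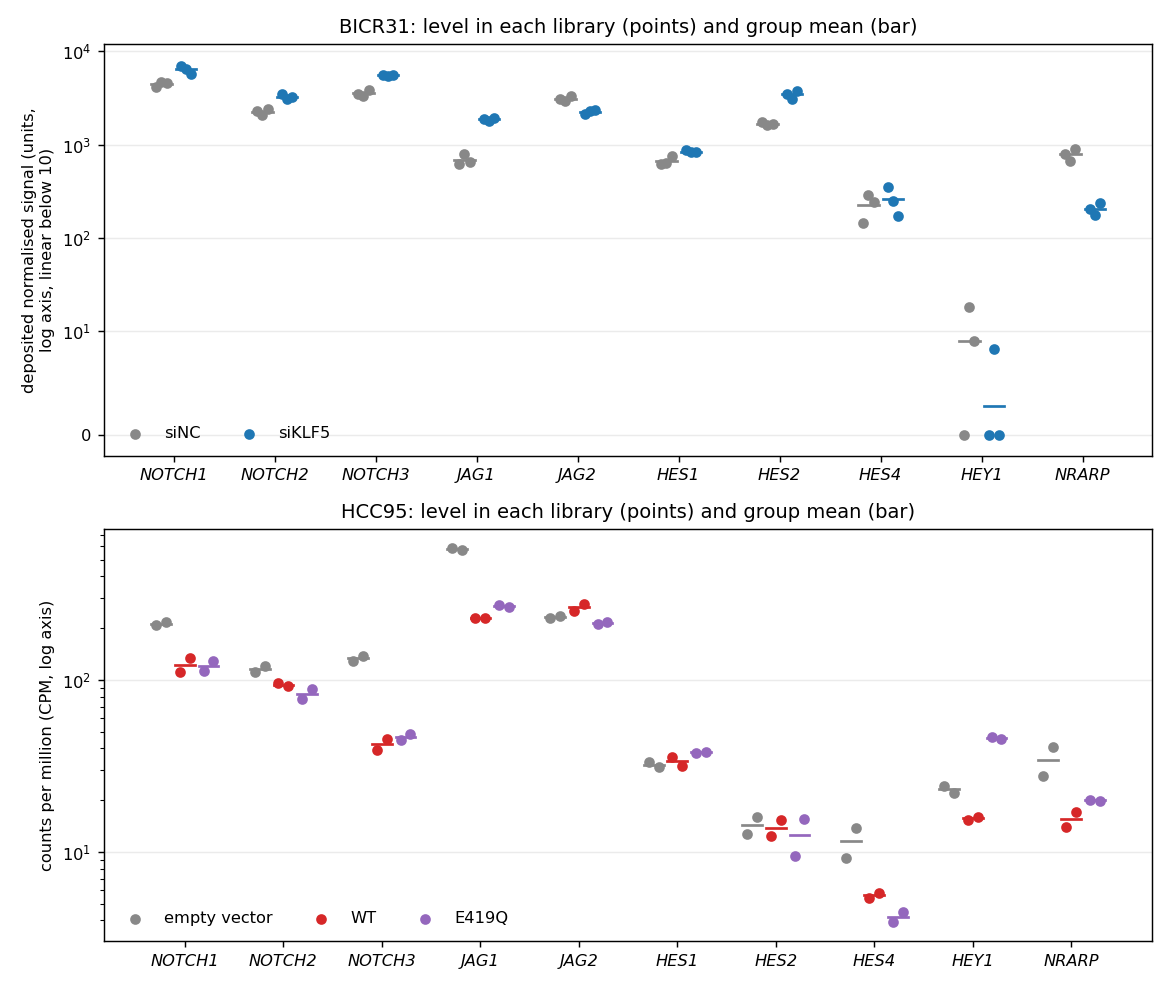
Level of each of the 10 genes in every library, as deposited normalised signal in BICR31 (upper panel, log axis that is linear below 10) and CPM in HCC95 (lower panel, log axis). Points are libraries and bars group means. NRARP lies lower with siKLF5, WT and E419Q than in the controls, whereas JAG1 lies higher with siKLF5 and lower with WT and E419Q.

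All 3 receptors were higher after KLF5 silencing in BICR31 and lower in HCC95 with either form of KLF5. NOTCH1 (ENSG00000148400.9), the receptor with the best known part in squamous differentiation, stood at 6968, 6533 and 5772 units with siKLF5 A, B and C and at 4127, 4751 and 4634 units with siNC A, B and C. Every siKLF5 library lay above every siNC library. The rise was 1.42-fold (95% interval 1.28 to 1.58) or 0.51 on the log2(signal + 1) scale (SE 0.0712, limma adjusted p = 4.10e-05). In HCC95 NOTCH1 was at 209.5 and 216 CPM with the empty vector, 112 and 133 CPM with WT and 112 and 128 CPM with E419Q. Both overexpressing groups lay under the empty vector and overlapped each other. NOTCH1 fell by 0.80 on the log2 scale with WT (SE 0.0841, edgeR adjusted p = 3.23e-07) and by 0.85 with E419Q (SE 0.0864, edgeR adjusted p = 1.63e-07).

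NOTCH3 (ENSG00000074181.4), a receptor best known from vascular smooth muscle, changed most of the 3. It stood at 5554.5, 5400 and 5606 units with siKLF5 A, B and C and at 3464, 3310.1 and 3866 units with siNC A, B and C. The siKLF5 libraries lay close together (SD 107 units) and all above siNC, a 1.56-fold rise (log2 0.64, SE 0.0639, limma adjusted p = 1.00e-06). In HCC95 it was at 129 and 137 CPM with the empty vector, 39.2 and 45.3 CPM with WT and 44.9 and 48.4 CPM with E419Q. This was 3.17-fold lower with WT (log2 -1.67, SE 0.0988, edgeR adjusted p = 5.12e-11) and 2.92-fold lower with E419Q (log2 -1.55, SE 0.1002, edgeR adjusted p = 1.39e-10). In order from the largest fall, NOTCH3 was number 68 of 12933 genes tested with WT and number 98 with E419Q. The promoter of NOTCH3, printed above, held the most matches to GGGCGG and CACCC together of the 9. HES2, which was not called in HCC95, also held GGGCGG at 5 places and CACCC at 2. JAG1, which was called there, held them at 2 places and 1. Whether the number of matches goes with the changes was not tested.

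NOTCH2 (ENSG00000134250.13), the third receptor measured, was at 3458, 3078.5 and 3239 units with siKLF5 A, B and C and at 2279, 2072 and 2403 units with siNC A, B and C, with no overlap. It rose 1.45-fold (log2 0.53, SE 0.0756, limma adjusted p = 4.75e-05). In HCC95 it was at 112 and 121 CPM with the empty vector, 95.7 and 92.1 CPM with WT and 77.5 and 88.4 CPM with E419Q. The 3 groups did not overlap in CPM, but in TPM WT (12.23 to 12.24) lay within the range of E419Q (11.1 to 13.6). NOTCH2 fell by 0.52 with E419Q on the log2 scale (SE 0.0921, edgeR adjusted p = 2.27e-04) and by 0.33 with WT (SE 0.0880, edgeR adjusted p = 0.00929). The call with WT was lost with DESeq2 (adjusted p = 0.133), without empty vector B (edgeR adjusted p = 0.0909) and without WT B (0.0876), in a range of 0.00398 to 0.133 over 12 alternatives. NOTCH2 has a near-identical partial copy, NOTCH2NL, between which reads may be split. That copy had a log2 fold change of 0.31 with siKLF5 (limma adjusted p = 0.0713), 0.19 with WT (edgeR adjusted p = 0.483) and -0.11 with E419Q (edgeR adjusted p = 0.755).

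The sum of the 3 receptors per length was 149 to 164 parts per 1000000 with siKLF5 against 101 to 112 with siNC, and 40.0 to 41.5 with WT and 41.9 to 43.6 with E419Q against 72.6 to 77.4 with the empty vector. In BICR31 the shares of the receptors overlapped between groups, with NOTCH3 making up 41.3% to 45.3% of the sum with siKLF5 and 39.0% to 42.1% with siNC. In HCC95 the empty vector gave a NOTCH3 share of 33.1% to 33.9%, WT one of 20.8% to 26.4% and E419Q one of 20.1% to 24.9%. These are descriptions with no test of their own.

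JAG1 and JAG2, transmembrane ligands of the Jagged class, went opposite ways after silencing. JAG1 (ENSG00000101384.7) stood at 1898, 1792 and 1929 units with siKLF5 A, B and C and at 627, 793 and 650 units with siNC A, B and C. The lowest siKLF5 library was more than double the highest siNC library. The rise was 2.72-fold (95% interval 2.33 to 3.19, log2 1.45, SE 0.107, limma adjusted p = 2.96e-08). JAG2 (ENSG00000184916.4) was at 2128, 2283 and 2354 units with siKLF5 A, B and C and at 3064, 2954.5 and 3288 units with siNC A, B and C. All siKLF5 libraries lay under all siNC libraries, a 1.38-fold fall (log2 -0.46, SE 0.0722, limma adjusted p = 1.36e-04).

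In HCC95, JAG1 was at 586 and 569 CPM with the empty vector, 229 and 229 CPM with WT and 271 and 265 CPM with E419Q. It was 2.54-fold lower with WT (log2 -1.35, SE 0.0597, edgeR adjusted p = 5.46e-13) and 2.20-fold lower with E419Q (log2 -1.14, SE 0.0597, edgeR adjusted p = 4.42e-12). By p-value JAG1 was number 4 of 12933 genes with WT and number 18 with E419Q. JAG2 was at 230.1 and 237 CPM with the empty vector, 252 and 277 CPM with WT and 212 and 218 CPM with E419Q. The 3 groups did not overlap in CPM, but in TPM E419Q (94.95 to 104.7) overlapped the empty vector (97.3 to 114.3). Neither difference from the empty vector passed the threshold (log2 0.17 with WT, edgeR adjusted p = 0.0722, and -0.15 with E419Q, edgeR adjusted p = 0.134). In the GENCODE 29 annotation JAG1 overlaps AL050403.2 on the opposite strand and JAG2 overlaps AL512356.1 on the same strand, so reads from the shared stretches cannot be assigned with certainty. A second gene ID with the symbol JAG1 held 1.23 counts over all libraries and was not used.

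On the scale per length the makeup of the ligand pair shifted more than its total did in BICR31. JAG1 made up 9.85% to 12.9% of the pair with siNC and 30.2% to 33.0% with siKLF5, while the sum was 89.6 to 98.6 and 86.2 to 91.2 parts per 1000000, ranges that overlap. In HCC95 the empty vector gave a JAG1 share of 56.0% to 59.9%, WT one of 32.5% to 32.9% and E419Q one of 38.4% to 41.8%. There the sum was also lower, at 173 to 174 with WT and 163 to 169.9 with E419Q against 243 to 259.6 with the empty vector. JAG1 was thus the more abundant ligand only with the empty vector among the 5 groups.

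**Figure D3:**
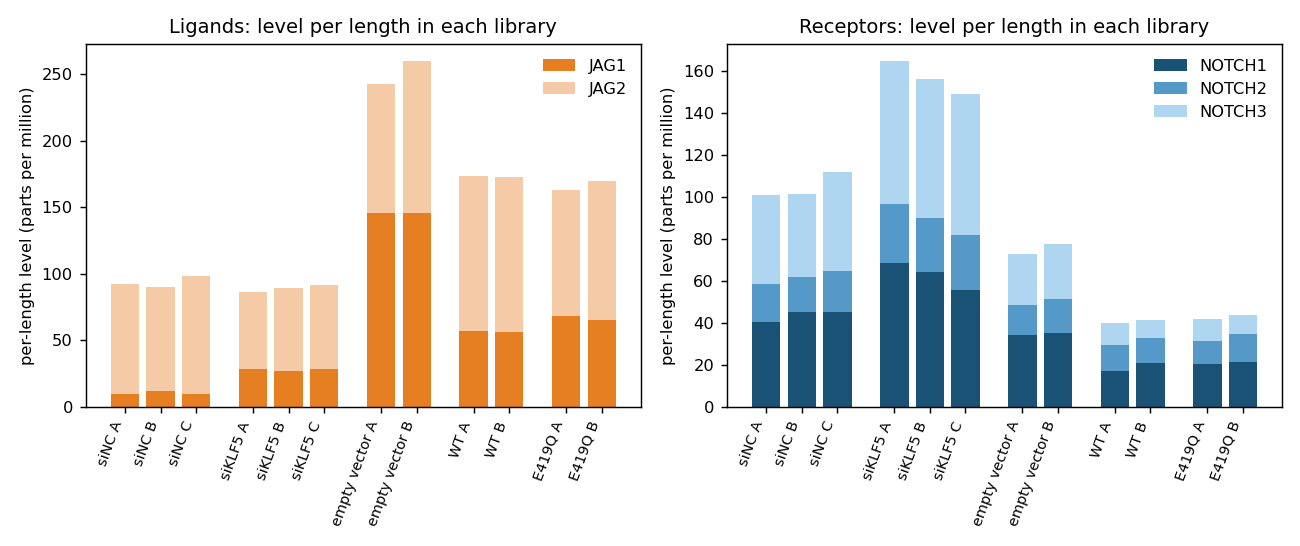
Level per length of the ligands JAG1 and JAG2 (left) and of the receptors NOTCH1, NOTCH2 and NOTCH3 (right), stacked for each of the 12 libraries in parts per 1000000 on axes that start at 0. The JAG1 part is larger with siKLF5 than with siNC at a like total, and both the JAG1 part and the receptor total are smaller with WT and E419Q than with the empty vector.

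The target genes did not follow the receptors as a block. NRARP (ENSG00000198435.2), a small ankyrin-repeat protein that is induced by NOTCH and attenuates its signal, was lower in all 3 treated groups. It stood at 205, 175 and 236 units with siKLF5 A, B and C and at 791, 675 and 894 units with siNC A, B and C. The ranges were far apart, and the fall was 3.82-fold (log2 -1.93, SE 0.173, limma adjusted p = 2.87e-07), number 295 of 15710 genes in order from the largest fall. In HCC95 NRARP was at 27.5 and 40.7 CPM with the empty vector, 13.9 and 17.0 CPM with WT and 20.2 and 19.9 CPM with E419Q. The empty vector libraries differed from each other but both lay above the other 4. NRARP was 2.25-fold lower with WT (log2 -1.17, SE 0.183, edgeR adjusted p = 6.33e-05) and 1.77-fold lower with E419Q (log2 -0.83, SE 0.180, edgeR adjusted p = 0.00185). The fall with E419Q was lost without empty vector B, the higher control library (log2 -0.49, edgeR adjusted p = 0.0957), and with DESeq2 (adjusted p = 0.0602), in a range of 1.15e-05 to 0.0957 over 12 alternatives.

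HES1 (ENSG00000114315.3), the best known target repressor, moved little. In BICR31 it was at 871, 825 and 827 units with siKLF5 A, B and C and at 618, 629 and 749.8 units with siNC A, B and C. The groups did not overlap, and the rise was 1.27-fold (log2 0.34, SE 0.120, limma adjusted p = 0.0451). That call was lost in 8 of 12 alternatives (limma adjusted p 0.0245 to 0.130). Among them were leaving out siKLF5 A (0.130), siKLF5 B (0.0885), siKLF5 C (0.0945), siNC A (0.129) or siNC B (0.121). With all libraries kept it was lost with no filter (0.0564), quantile normalisation (0.0858) or the library letter as a block (0.054). In HCC95 HES1 was at 33.3 and 31.0 CPM with the empty vector, 35.8 and 31.8 CPM with WT and 37.4 and 38.3 CPM with E419Q. WT overlapped the empty vector and E419Q lay above both. The log2 fold change was 0.06 with WT (95% interval -0.21 to 0.33, edgeR adjusted p = 0.775) and 0.21 with E419Q (95% interval -0.06 to 0.49, edgeR adjusted p = 0.277). Its promoter held the paired pattern, which HES4 shares, with 2 copies of TGGGAA and no match to GGGCGG or CACCC. Whether these letters bear on its level was not tested.

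HES4 (ENSG00000188290.6), a related repressor with the same paired pattern, had 16 to 43 counts per BICR31 library. It was at 353, 250 and 173 units with siKLF5 A, B and C and at 145, 292 and 244 units with siNC A, B and C. The groups overlapped (log2 0.19, 95% interval -0.42 to 0.80, limma adjusted p = 0.689). In HCC95 it was at 9.26 and 13.8 CPM with the empty vector, 5.40 and 5.76 CPM with WT and 3.90 and 4.46 CPM with E419Q, or 12 to 64 counts per library. HES4 fell by 1.08 on the log2 scale with WT (SE 0.285, edgeR adjusted p = 0.00830) and by 1.51 with E419Q (SE 0.314, edgeR adjusted p = 0.00121). The call with WT was lost with DESeq2 (adjusted p = 0.178) and without empty vector B (0.188), WT A (0.0667) or WT B (0.0536), in a range of 0.00109 to 0.188 over 12 alternatives.

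HES2 (ENSG00000069812.7), a less studied member of the HES family, passed the threshold in BICR31 and not in HCC95. In BICR31 it was at 3500.3, 3125 and 3724 units with siKLF5 A, B and C and at 1764, 1614 and 1680.2 units with siNC A, B and C. It rose 2.04-fold (log2 1.03, SE 0.0790, limma adjusted p = 4.78e-08), with no overlap, and became the highest of the 10 genes per length at 128 ± 9.92 parts per 1000000 (SD, n = 3). In HCC95 it was at 12.7 and 15.9 CPM with the empty vector, 12.3 and 15.3 CPM with WT and 9.45 and 15.6 CPM with E419Q. The groups overlapped (log2 -0.08 with WT, 95% interval -0.55 to 0.39, edgeR adjusted p = 0.841, and -0.22 with E419Q, 95% interval -0.72 to 0.27, edgeR adjusted p = 0.567). Whether the lines differ in this response was not tested.

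HEY1 (ENSG00000164683.12), a target of the HEY subfamily, was the only one of the 10 called in opposite directions with WT and E419Q against the empty vector. In BICR31 it had 1 count in the 3 siKLF5 libraries together and 3 in the siNC libraries, at or under the level of 3 counts per library (1.31 to 1.56 CPM), and was not tested. In HCC95 it was at 24.3 and 22.0 CPM with the empty vector, 15.4 and 16.03 CPM with WT and 46.5 and 45.2 CPM with E419Q. The 3 groups were apart in CPM. In TPM, WT (10.8 to 15.4) overlapped the empty vector (15.2 to 18.7), and E419Q lay above both (33.4 to 34.6). HEY1 rose 1.95-fold with E419Q (log2 0.96, SE 0.135, edgeR adjusted p = 1.50e-05) and fell 1.47-fold with WT (log2 -0.56, SE 0.163, edgeR adjusted p = 0.0151). The fall with WT was lost with DESeq2 (adjusted p = 0.189) and without empty vector A (0.0722), WT A (0.0898) or WT B (0.0669), in a range of 0.0147 to 0.189 over 12 alternatives. The rise with E419Q kept its call in all 12 (0.00207 at most).

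Set side by side with WT, E419Q differed in 3 of the 10 genes. HEY1 was 2.88-fold higher with E419Q than with WT (95% interval 2.32 to 3.56, log2 1.52, SE 0.148, edgeR adjusted p = 1.58e-07), number 94 of 12933 genes in order from the largest rise, and kept its call in all 12 alternatives. JAG2 was 1.25-fold lower with E419Q than with WT (log2 -0.32, SE 0.0689, edgeR adjusted p = 0.00357), a call lost without E419Q A (0.0607) or WT B (0.108), in a range of 3.13e-04 to 0.108. JAG1 was 1.16-fold higher (log2 0.21, SE 0.0641, edgeR adjusted p = 0.0469). Its call was lost in 8 of 12 alternatives, among them leaving out E419Q A, E419Q B, WT A or WT B. With all libraries kept it was lost with DESeq2 (adjusted p = 0.259) and limma-voom (adjusted p = 0.052). So it was by edgeR with no filter (adjusted p = 0.0613) or with the library letter as a block (adjusted p = 0.054). The other 7 gave log2 differences with these 95% intervals: NOTCH1 -0.24 to 0.15, NOTCH2 -0.39 to 0.00432, NOTCH3 -0.13 to 0.37, HES1 -0.12 to 0.42, HES2 -0.65 to 0.37, HES4 -1.19 to 0.33 and NRARP -0.10 to 0.79. For HES2, HES4 and NRARP these intervals still hold differences of over 1.5-fold in 1 direction.

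**Figure D4:**
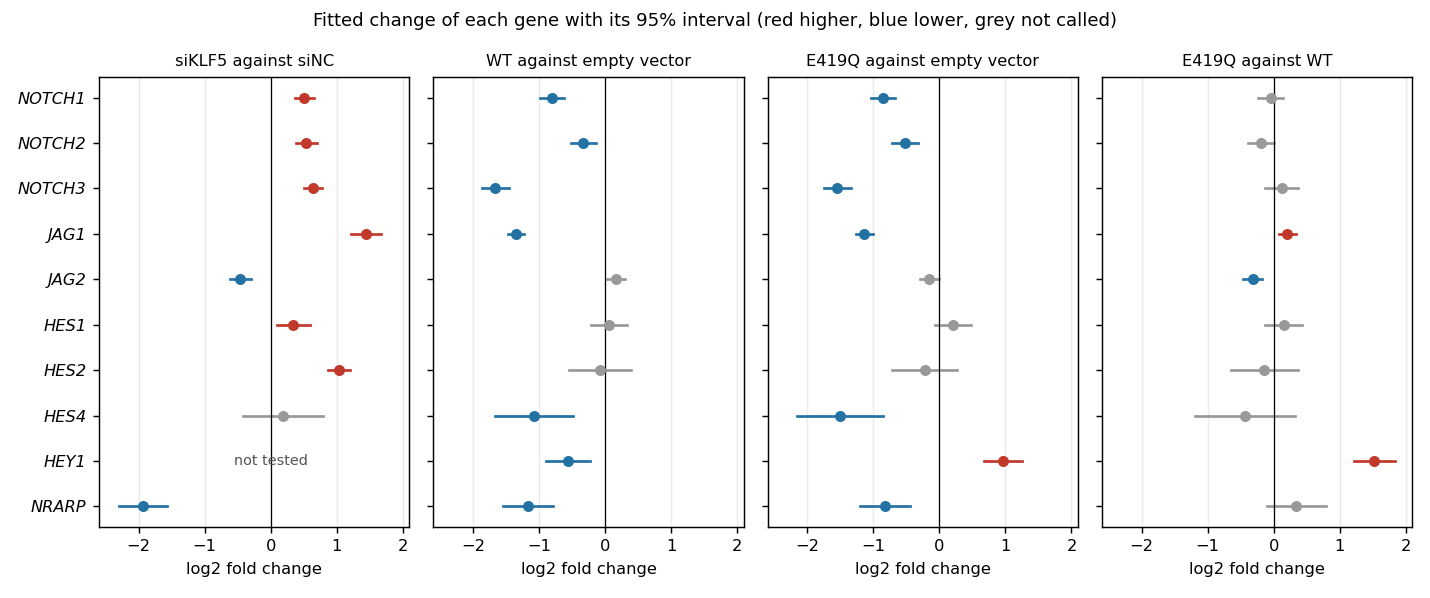
Fitted log2 fold change of each of the 10 genes in the 4 comparisons, with 95% intervals as horizontal lines. Red points passed the threshold as higher, blue points as lower, and grey points did not pass; HEY1 was not tested in BICR31. The receptors and JAG1 lie right of 0 with siKLF5 and left of 0 with WT and E419Q.

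Counted together, 8 of the 9 genes tested in BICR31 passed the threshold with siKLF5, 6 higher and 2 lower, where 26.1% of all genes tested did (15.3% higher and 10.8% lower). With WT 7 of 10 passed, all lower, beside 22.9% of all genes (10.8% higher and 12.1% lower). With E419Q 7 of 10 passed, 1 higher and 6 lower, beside 21.2% (10.4% higher and 10.8% lower). Between E419Q and WT 3 of 10 passed, 2 higher and 1 lower, beside 8% (4.41% higher and 3.59% lower). The median log2 fold change of those tested was 0.51 with siKLF5, -0.68 with WT, -0.67 with E419Q and 0.04 between E419Q and WT, and over all genes it was 0.04, 0.00342, 0.00389 and -0.00299. In signal, the groups did not overlap for 8 of 9 genes with siKLF5 (40% of all genes). In CPM they did not overlap for 8 of 10 with WT (61%), 9 of 10 with E419Q (58.8%) and 7 of 10 between E419Q and WT (49%). The WT and E419Q comparisons share the empty vector libraries, so their counts are not independent of each other. The genes were picked with earlier results of these data known, and no test of the group as a whole was made.

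Across the lines, NOTCH1, NOTCH2, NOTCH3 and JAG1 were called higher with siKLF5 and lower with WT, and the same 4 were lower with E419Q. That is 4 of the 9 genes tested in both lines, beside 4.87% of all genes called in opposite directions with WT and 3.81% with E419Q. NRARP alone of the 9 was called in the same direction in both lines, lower each time, beside 4.85% of all genes with WT and 5.32% with E419Q. Against the control group of each line, JAG2, HES1 and HES2 were called in BICR31 only and HES4 in HCC95 only, without a test of the difference between lines.

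**Figure D5:**
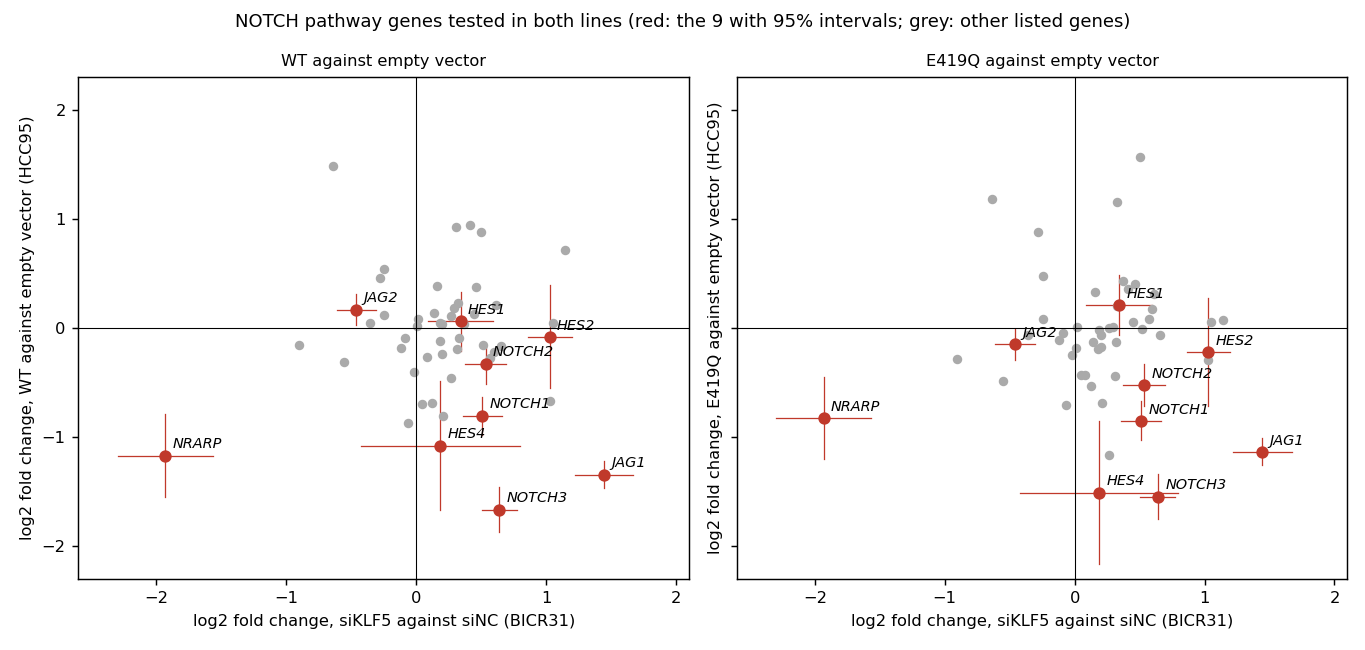
Log2 fold change with siKLF5 in BICR31 (horizontal axis) against that with WT (left) or E419Q (right) in HCC95 (vertical axes) for the listed NOTCH pathway genes tested in both lines. Red points are the 9 named genes with 95% intervals and grey points the other listed genes. NOTCH1, NOTCH2, NOTCH3 and JAG1 lie in the lower right, and NRARP lies far out in the lower left.

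The rest of the pathway was read from a list of 56 further genes. In BICR31 51 of them were tested, and 19 rose and 5 fell with siKLF5 (median log2 fold change 0.25), beside 15.3% higher and 10.8% lower among all genes tested (median 0.04). Of 9 receptor-cleaving enzymes and subunits 6 rose and none fell: FURIN, which makes the first cut, rose 2.04-fold (6871 ± 170.2 against 3370 ± 216 units, SD, n = 3, limma adjusted p = 1.45e-09), ADAM17 by 0.66 on the log2 scale (limma adjusted p = 1.16e-05) and the gamma-secretase subunit NCSTN by 0.52 (limma adjusted p = 8.46e-05). RBPJ, the DNA-binding partner of the cleaved receptor, rose 2.07-fold (726 ± 25.8 against 351 ± 37.6 units, limma adjusted p = 2.88e-05). The coactivators EP300 (log2 0.32) and KAT2B (0.96) rose too, in a nuclear complex of 8 genes of which 3 rose and none fell. Of 8 corepressors 4 rose and none fell, with CIR1 (0.60) and TLE3 (0.37) among them. Of 10 genes tested for inhibition and turnover 4 rose and 2 fell. NUMB, an inhibitor that routes receptors to degradation, rose by 0.61, while its relative NUMBL (-0.90) and the ubiquitin ligase ITCH (-0.36) were the ones that fell. Of 4 genes of ligand endocytosis 2 rose, the ubiquitin ligases MIB1 (0.45) and NEURL1B (0.41), and 1 fell, NEURL, a ligase of the same kind (-1.27). Also lower were DLK2, a Delta-like protein without the usual receptor-binding domain (-0.64), and LFNG, a glycosyltransferase that modifies receptors (-0.28).

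Several of these calls were lost in some of limma's alternative fits. That of KAT2B was lost in 6 of 12 alternatives (adjusted p 0.0290 to 0.216). These were leaving out siKLF5 A, B or C or siNC C, no filter (0.099) and quantile normalisation (0.0694). That of TLE3 was lost in 4 (0.00900 to 0.113), without siKLF5 A or C or siNC A or C, and that of NEURL1B in 4 (0.0186 to 0.141), without siKLF5 A or B or siNC B or C. LFNG lost its call in 5 (0.0131 to 0.123), without siKLF5 A or B or any 1 siNC library. NUMBL lost its call in 5 (0.00410 to 0.130), without siKLF5 A or B or siNC B or C, and with no filter (0.0572). The calls of FURIN, ADAM17, NCSTN, RBPJ, EP300, CIR1, NUMB, ITCH, MIB1, NEURL and DLK2 held in all 12.

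In HCC95 44 of the 56 were tested. With WT 6 rose and 9 fell (median log2 fold change 0.03), beside 10.8% higher and 12.1% lower among all genes, and with E419Q 8 rose and 5 fell (median -0.03), beside 10.4% and 10.8%. DLK2 rose 2.79-fold with WT (53.7 ± 1.23 against 19.2 ± 1.53 CPM, SD, n = 2, edgeR adjusted p = 7.46e-08) and 2.26-fold with E419Q (edgeR adjusted p = 3.82e-06). LFNG rose by 0.45 with WT and 0.88 with E419Q on the log2 scale. The Delta ligand DLL1 fell by 0.32 with WT and 0.49 with E419Q. Among Mastermind coactivators, MAML3 rose by 0.88 with WT and 1.57 with E419Q, and MAML2 fell by 0.46 and 1.16. The corepressor TLE1 fell by 0.81 and 0.69. Both calls of DLK2 and TLE1 and those of LFNG, MAML2 and MAML3 with E419Q held in all 12 alternatives. With WT, MAML3 lost its call in 10 of 12 (adjusted p 0.0438 to 0.314), among them leaving out any 1 library, and DLL1 in 8 (0.0325 to 0.382), among them leaving out any 1 library but empty vector A. DESeq2 did not call LFNG (adjusted p = 0.253) or MAML2 (0.216) with WT, or DLL1 with E419Q (0.118). By edgeR, LFNG with WT was also lost without empty vector B (0.156) or WT A (0.187), MAML2 with WT without empty vector A (0.0574) or WT B (0.150), and DLL1 with E419Q without empty vector B (0.0575).

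Of 43 listed genes tested in both lines, 4 (9.3%) were called in opposite directions with siKLF5 and WT, beside 4.87% of all genes. They were DLK2, LFNG, FURIN (log2 -0.67 with WT) and the gamma-secretase subunit APH1A (0.20 with siKLF5 and -0.24 with WT). The calls of APH1A were lost in 5 of 12 alternatives with siKLF5 (0.0210 to 0.136), among them leaving out siKLF5 A or C or siNC B or C, and in 8 with WT (0.0124 to 0.411), among them leaving out any 1 library but empty vector A. With siKLF5 and E419Q 2 were called in opposite directions, DLK2 and LFNG (4.65%, beside 3.81% of all genes). In the same direction, higher in both lines, were NEURL1B with WT (1 of 43, beside 4.85% of all genes) and DTX4, NEURL1B and TLE3 with E419Q (3 of 43, beside 5.32%). DTX4, a Deltex ubiquitin ligase, was higher by 0.32 with siKLF5, a call lost in 6 of 12 alternatives (0.0145 to 0.0938), among them leaving out siKLF5 A, B or C or siNC A or B. NEURL1B was higher by 0.36 with E419Q, which was lost with DESeq2 (adjusted p = 0.283) and without E419Q A (0.0867), E419Q B (0.204) or empty vector B (0.276).

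Between E419Q and WT 3 of the 44 were higher and 3 lower, beside 4.41% and 3.59% of all genes. DTX4 was 1.90-fold higher with E419Q (41.7 ± 3.71 against 21.7 ± 0.628 CPM, SD, n = 2, edgeR adjusted p = 1.80e-04). TLE3 (log2 0.39) and LFNG (0.43) were higher too. NEURL1B (-0.58) and MAML2 (-0.70) were among those lower. The calls of DTX4 and NEURL1B held in all 12 alternatives. That of TLE3 was lost with DESeq2 (adjusted p = 0.0781) and without E419Q B (0.126) or WT A (0.103), and that of MAML2 with DESeq2 (0.0974) and without E419Q B (0.0711) or WT A (0.0730). That of LFNG was lost in 6 of 12 (0.0315 to 0.611), among them DESeq2 and leaving out E419Q A, E419Q B, WT A or WT B.

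For 3 of the genes the most similar profiles were sought over the 12 libraries, as the root-mean-square difference of log2 levels centred on the control group of each line, among 11406 protein-coding genes tested in both. Nearest to JAG1 were CMTM3 (0.249), PVRL4, the adhesion protein nectin-4 (0.252), and CLDN4, a claudin of tight junctions (0.268). Nearest to NRARP were MYBL1, a MYB-family transcription factor (0.284), KRT6A, a keratin of stressed and proliferating epithelium (0.361), and CPA4, a carboxypeptidase (0.388). The mean difference of MYBL1 from control was -1.74 with siKLF5, -1.06 with WT and -0.91 with E419Q, and that of NRARP was -1.89, -1.07 and -0.71. Nearest to HES1, which changed little, were LMAN2 (0.0583), SP140L (0.0633) and SECISBP2 (0.0692). These distances describe levels and carry no test.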

How the data were processed

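Poly(A) RNA was sequenced from 6 BICR31 and 6 HCC95 libraries, prepared with Qiagen and NEB kits, per the labels' protocols. STAR, RSEM and hg19 are named for both lines, and edgeR and limma for HCC95, per the submitters' processing notes, without versions. The sources used here do not say how strand was handled in counting. For HCC95 the authors deposited RSEM expected counts, TPM and FPKM per gene, per the file headers. The expected counts were tested, TPM served to compare genes, and FPKM was not used. For BICR31 the authors deposited a normalised signal, by a method that the labels do not describe. In it 1 count was worth 7.87 to 9.12 units, which made 81.7% to 82.6% of values whole within 0.02. Because the values were already normalised, a count test was not used for them. The limit of 3 counts, by library, lay at 1.31 to 1.56 CPM (BICR31) and 0.646 to 0.976 CPM (HCC95).

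For BICR31 the 15710 genes at a mean signal of 10 or more were tested on log2(signal + 1) with limma 3.58.1 (empirical Bayes with trend). In HCC95, expected counts rounded to whole numbers were tested with edgeR 4.0.16 (quasi-likelihood, TMM scaling, filterByExpr, 12933 genes), the 6 libraries sharing 1 estimate of the spread. All tests are two-sided, and p-values were adjusted by Benjamini and Hochberg over all genes tested, with a threshold of 0.05. The fits were also run on simulated data with the same spread for all genes and with rises only. The real libraries differ in this, so that run is not used here to judge the calls. Groups and letters came from the labels. Libraries with the same letter did not deviate together, so no block was used. Libraries of a group differed from each other beyond counting error (chi-square over its degrees of freedom 1.22 to 1.88). Alternatives were another pseudocount, filters, other scalings, DESeq2 1.42.0, limma-voom, the letter as a block, 2-group fits and leaving out each library. Overlaps came from GENCODE 29 and promoters from RefSeq, neither on hg19. R 4.3.3 and Python 3.11.15 were used.

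The 10 genes, the pathway and marker lists and the tests were chosen with earlier results of these data known. Named were the 10 genes, KLF5, up to 3 further pathway genes per role and comparison with the smallest adjusted p under 0.05, and the 3 genes nearest in profile to JAG1, NRARP and HES1. Some genes that this rule or the marker list holds are not reported here. Named after their values were seen were NOTCH2NL, as the near copy of NOTCH2, APH1A, NUMBL, ITCH, DTX4 in BICR31, and the marker genes at 0 or singled out.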

Additional observations from a re-analysis of the deposited data

Results flagged for a closer look

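For 3 genes the effect of E419Q on HCC95 differed from that of WT, each measured against the same empty vector libraries, by edgeR's test of E419Q against WT. HEY1 had an E419Q effect higher by 1.52 on the log2 scale (edgeR adjusted p = 1.58e-07). In CPM it was higher than the empty vector with E419Q in both libraries and lower with WT in both. In TPM the WT and empty vector libraries overlapped, and the call with WT was lost in some alternatives, as given above. JAG2 had a difference of -0.32 (edgeR adjusted p = 0.00357) and JAG1 of 0.21 (edgeR adjusted p = 0.0469). The last 2 lost their calls when single libraries were left out, as given with their values. That of JAG1 was also lost with all libraries kept, under DESeq2, limma-voom, no filter and the library letter as a block.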

How the results depend on the processing

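Under the alternatives run, the calls of NOTCH1, NOTCH3 and JAG1 with siKLF5, WT and E419Q, of NRARP with siKLF5 and WT, of HES2, NOTCH2 and JAG2 with siKLF5, and of NOTCH2, HES4 and HEY1 with E419Q kept direction and threshold. Calls of these 10 and of the other named pathway genes that were lost are given beside their values. DESeq2 called fewer genes: 1137 with WT (2962 with edgeR), 1169 with E419Q (2737) and 467 between E419Q and WT (1034). With it 4 of the 10 genes passed with WT, and 9 genes of the whole pathway list with WT (22 with edgeR) and 4 between E419Q and WT (9). The cause was not tested. Leaving out 1 library left 3194 to 3608 genes called with siKLF5, 1719 to 2792 with WT, 1626 to 2603 with E419Q and 597 to 1172 between E419Q and WT, where fewer libraries enter the fit. Of the 10 genes, 7 to 8, 4 to 7, 6 to 7 and 1 to 3 were then called, and of the pathway list 22 to 27, 11 to 19, 16 to 21 and 4 to 9. A lone library was assumed to vary like those of other groups. Among values that were not called, the sign turned when 1 library was left out for HES4 with siKLF5 (range -0.10 to 0.45, negative without siKLF5 A, at -0.07, or siNC A), HES1 with WT (-0.0249 to 0.15, negative without WT A), HES2 with WT (-0.26 to 0.10, positive without empty vector B or, at 0.06, WT A), HES2 with E419Q (-0.65 to 0.0838, positive without E419Q A), and, between E419Q and WT, HES2 (-0.57 to 0.17, positive without E419Q A or, at 0.03, WT B) and NOTCH1 (-0.17 to 0.0865, positive without WT B or, at 0.04, E419Q A). Quantile normalisation moved the BICR31 calls from 58.7% higher to 48.5% higher (2005 higher, 2129 lower). With the letter as a replicate block, 4076, 2900, 2686 and 987 genes were called, and 7, 7, 7 and 2 of the 10. The letters did not pair the libraries (correlations of same-letter deviations 0.016, -0.052 and -0.076 in BICR31 and -0.003 to 0.067 in HCC95). Precision is limited by counts for HEY1 in BICR31 (0 to 2 per library) and HES4 (16 to 43 in BICR31, 12 to 64 in HCC95).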
